A study of Mus musculus with 24 samples.

Results

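The Myc, Max and Mxd family is a set of 10 genes chosen by symbol: Myc, Mycn, Mycl, Max, Mxd3, Mxd4, Mxi1, Mnt, Mlx and Mlxip. All 10 were found in both of the results tables analysed here, among 19780 genes measured in control cells and 19979 in paused cells. The cells were mouse E14 embryonic stem cells, a line of early embryo origin, kept on gelatin in serum with leukaemia inhibitory factor (LIF). The genotypes were wild type and 2 lines labelled as Smad2 knockouts. Smad2 is a transcription factor that Nodal and activin receptors switch on. Each genotype was sampled in control medium or after 12 h with INK128 at 200 nM, which blocks the growth kinase mTOR and puts these cells in a paused state resembling embryonic diapause. The 24 poly(A) RNA libraries form 6 groups of 4, and the labels do not say whether the 4 came from separate cultures, so the p-values measure only the spread between these libraries. Whether the 2 knockout lines agree cannot be seen from the values available. Loss of Smad2 cannot be told apart from other differences between the lines.

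Myc proteins are transcription factors that bind DNA as pairs with Max, at the E-box letters CACGTG, and raise the expression of genes for ribosome production, metabolism and cell division. Mxd proteins, Mxi1 and Mnt compete for Max, bind the same letters and recruit Sin3 corepressors, so they oppose Myc. Mlx is a second partner protein, which pairs with some Mxd proteins and Mnt and with the glucose-responsive factors Mlxip (MondoA) and Mlxipl (ChREBP). In embryonic stem cells Myc and Mycn together sustain growth, and loss of both is known to bring on a dormant state that resembles diapause.

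The E-box itself stands in the promoter windows of several members, which are shown because these proteins bind it. RefSeq windows of GRCm38.p6, from 250 bases before to 50 after a transcript start, were found for 9 members, Myc not among them. The letters CACGTG occurred in the windows of 4 of these 9 genes (Max, Mxd4, Mnt and Mlx), and in 7.15% of all 32851 windows. They read the same on both strands. Among the 18459 windows of genes in the tables the share was 9.00%. Counted by window, 4 of the members' 11 held CACGTG. The E-box and 12 bases to each side are printed on the gene's strand, 5′ to 3′, with the motif in capitals. The last line holds the variant CACGCG, found on either strand in 9.27% of all windows, in 14.1% of those of genes in the tables and, among the 9 members with a window, in Mycl. It stood in 1 of the 11 member windows.
Max, chr12:76962234-76962263, minus strand: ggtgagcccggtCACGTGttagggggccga
Mnt, chr11:74830789-74830818, plus strand: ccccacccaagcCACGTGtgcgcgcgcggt
Mlx, chr11:101087238-101087267, plus strand: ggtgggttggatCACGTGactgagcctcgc
Mxd4, chr5:34187912-34187941, minus strand: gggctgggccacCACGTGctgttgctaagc
Mycl, chr4:122995899-122995928, plus strand: ccaagccccgggCACGCGacgagatataaa
The motif begins 3 bases before the transcript start in Max, 40 before it in Mlx, 123 in Mnt, 219 in Mxd4 and 20 in Mycl. These are matches of letters, with no measurement of binding.

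Mycn, the member with the largest change in the knockout, had neither form of the E-box in its window. Its sequence is shown because Smad proteins are known to bind the letters CAGAC and the GC-rich letters GGCGC. The 172 bases upstream of the furthest annotated start (minus strand) hold 1 Smad box and 4 GC boxes on either strand, in capitals, some of them overlapping.
Mycn, chr12:12941915-12942086: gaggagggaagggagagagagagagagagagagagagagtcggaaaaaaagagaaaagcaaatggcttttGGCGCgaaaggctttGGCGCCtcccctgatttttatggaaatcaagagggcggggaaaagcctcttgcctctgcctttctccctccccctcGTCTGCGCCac
Both motifs are common. CAGAC was found in 49.6% of all windows and in 4 of the 9 members, and GGCGC in 36.9% of all windows, in 53.3% of those of genes in the tables and in all 9 members with a window. Counted by window, 6 of the members' 11 held CAGAC and 10 held GGCGC.

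The values are those of deposited results tables and hold no single library, so each comparison is given with its standard error and no spread over libraries. Which genotype forms the numerator is not named in them. Changes are read as knockout over wild type because Smad2 is then lower in both, at 78.6% of the wild-type level in the authors' deposited control table (log2 change -0.35, SE 0.07) and 64.6% in the paused one (-0.63, SE 0.06). Under the opposite reading all directions would be reversed. Levels of the wild type and the knockout, those of the markers included, also rest on this reading. Embryonic stem cell markers were abundant, the 7 listed (Pou5f1, Sox2, Nanog, Zfp42, Esrrb, Utf1 and Dppa5a) each at 268 ppm or more of the table's summed normalized counts. Of these 7, 1 was called higher and 2 lower in control cells and 1 each way in paused cells, with sums from 4901 to 4605 ppm and from 4193 to 4056 ppm in wild type and knockout. Markers of other cell types were less abundant, and some were called. All 6 primitive endoderm markers were called higher in both conditions, from a summed 13.5 to 26.2 ppm in control cells and from 27.3 to 46.9 in paused cells. Of the 5 neuroectoderm markers 2 were called lower in each (summed 100.1 to 36.6 and 116.8 to 24.9 ppm) and 1 higher, and Neurog2 was absent from both tables. Of the fibroblast markers 4 of 5 found were called lower in control cells (summed 30.8 to 11.1 ppm) and 3 of 4 in paused cells (27.0 to 13.2 ppm), with Lum absent from both and Dcn from the paused table. Trophoblast markers went from a summed 425.2 to 323.1 ppm and from 481.1 to 397.8 ppm, with 1 of 6 called higher and 1 lower in each. Their part in the changes below was not tested, and in bulk RNA fewer cells of a type and less RNA per cell cannot be told apart.

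For a view of level, the mean normalized count of a gene was split into a wild-type and a knockout level that fit its change, on the assumption that 4 wild-type and 8 knockout libraries were averaged. Levels are given in ppm of the table's summed counts per kilobase of exon, the only scale here on which genes can be compared. Mycn was the most abundant member in wild-type control cells at 108.8, followed by Myc at 33.9 and Max at 30.1. Mlx stood at 17.8, Mnt at 14.3, Mlxip at 6.51, Mycl at 4.29, Mxi1 at 3.57, Mxd3 at 2.49 and Mxd4 at 0.387. In wild-type paused cells the order was the same except for Mnt, which at 27.6 lay above Mlx (13.3). There Mycn stood at 75.8, and Myc (29.6), Max (29.3) and Mnt were close together. No spread over libraries exists for these levels, so no neighbours in the order can be said to differ. With the longest transcript as the length, in place of all exons, Max came to 55.7 and 54.3 and Mxd4 to 0.710 and 0.788 in wild-type control and paused cells. Max then lay above Myc (39.4 and 34.4), and in knockout paused cells Max (60.7) lay above Mycn (44.7). With the wild type read as the numerator, and all exons as the length, Mycn led wild-type control cells at 59.2, with Max at 31.0 and Myc at 22.7. In wild-type paused cells that reading put Max (34.0) and Mnt (33.0) above Mycn (28.7) and Myc (21.5), so the wild-type order there depends on the numerator.

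**Figure D1:**
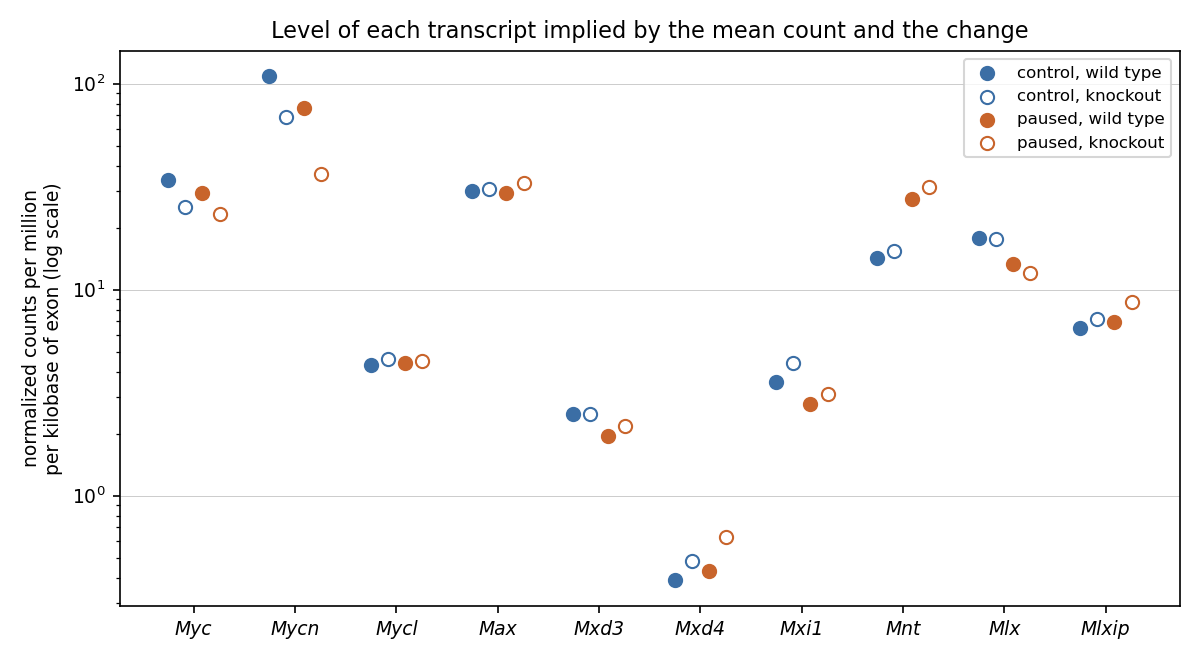
Level of each member in ppm of the table's summed normalized counts per kilobase of exon (log axis), as implied for wild-type (filled) and knockout (open) cells in control (blue) and paused (orange) condition, with no error since no library values exist. On this length Mycn lies highest in every group, from 108.8 in wild-type control to 36.3 in knockout paused cells, and Mxd4 lowest, but Max is highest in knockout paused cells with the longest transcript as the length, and in wild-type paused cells with the wild type read as the numerator.

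In control cells 4 of the 10 members passed the authors' test at an adjusted p under 0.05, 2 lower (Mycn and Myc) and 2 higher (Mxi1 and Mxd4). In paused cells 8 passed, 3 lower (Mycn, Myc and Mlx) and 5 higher (Mxd4, Mlxip, Mnt, Max and Mxi1). The same threshold called 41.4% of all control genes and 42.6% of all paused genes, so 4 of 10 is near the background and 8 of 10 is above it. The median change of the 10 was 0.07 in control and 0.16 in paused cells, against 0.00 over all genes in each. If both genotypes are given equal summed counts, which moves every control change up by 0.06, the control calls become 4 higher and 2 lower, Mnt and Mlxip being added. That shift, and the 0.05 of centring on the median of genes above 5 ppm, are smaller than every called change of a member.

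The members' counts were read against all genes under each other rule for a call as well. An adjusted p under 0.01 kept 4 members in control and 8 in paused cells, where it called 30.9% and 32.3% of all genes. Equal summed counts gave 6 and 8 members beside 39.8% and 41.1% of all genes, and centring gave 6 and 7 beside 39.7% and 40.9%. Among genes above 5 ppm alone, 3 of 9 and 7 of 8 members passed beside 51.6% and 53% of genes. When a change had to exceed 1.2-fold, Mycn alone passed in control cells and Mycn and Mxd4 in paused cells, beside 12.2% and 12.1% of all genes. With each statistic divided by its middle spread over all genes, Mycn alone passed in each condition, beside 1.48% and 2.25%. Mycn was therefore the member whose fall passed every rule tried in both conditions.

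**Figure D2:**
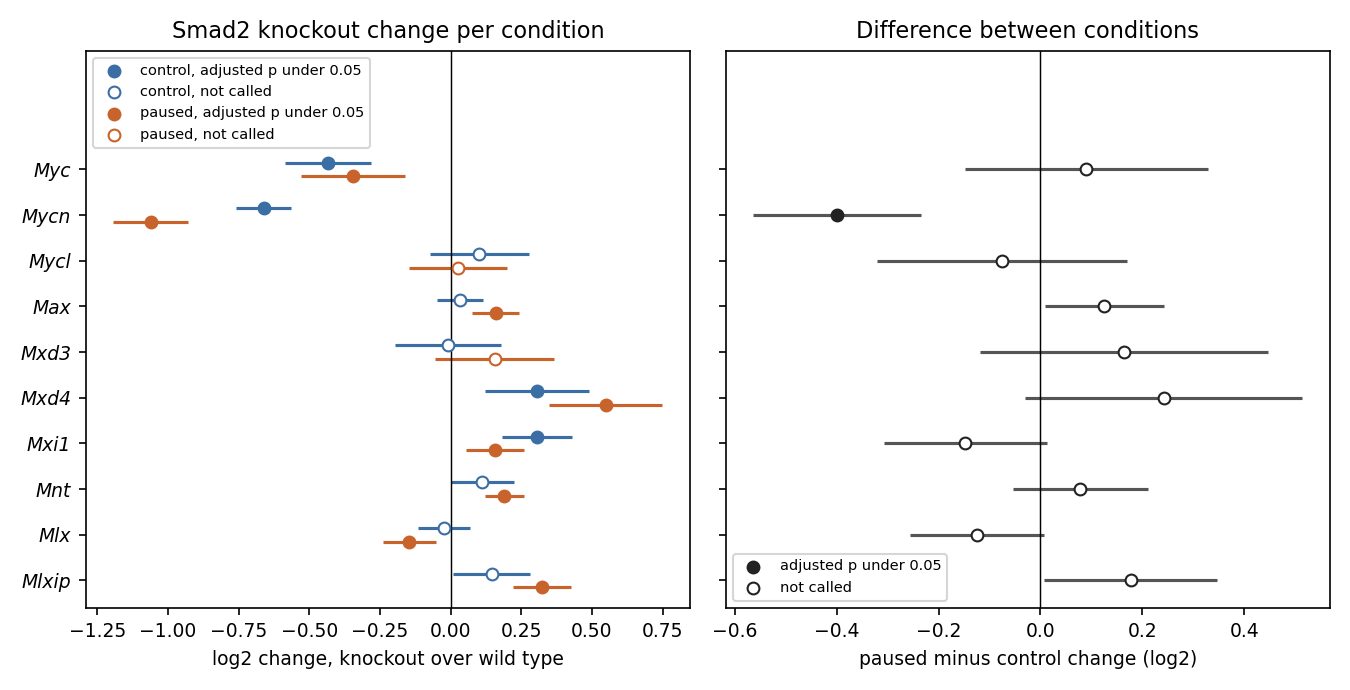
Left, log2 change of knockout over wild type for each member in control (blue) and paused (orange) cells with its 95% interval. Right, the paused change minus the control change with its 95% interval. Filled points have an adjusted p under 0.05. Mycn is the farthest from 0 on the left, at -0.66 and -1.06, and the only filled point on the right.

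Mycn codes for N-Myc, the Myc protein that was first known from neuroblastoma. Its gene lies at chr12:12936093-12941914 on the minus strand (GRCm38, GENCODE M21). The mean was 12465 normalized counts in the authors' deposited control table and 7219 in the paused one. These means correspond to wild-type and knockout levels of 16515 and 10440 counts in control cells and of 11059 and 5299 in paused cells. The knockout was thus below the wild type within each table. With the wild type read as the numerator the levels would be 8981 and 14207 in the control table, and 4185 and 8736 in the paused one. In the authors' deposited control table Mycn fell by 0.66 on the log2 scale (SE 0.05, adjusted p 8.21e-38), to 63.2% of wild type (95% interval 59.1 to 67.6). In the authors' deposited paused table it fell by 1.06 (SE 0.07, adjusted p 4.96e-53), to 47.9% (95% interval 43.7 to 52.5). Changes of larger size were found for 17.4% of all genes in control and 7.28% in paused cells, and for 5.73% and 1.76% of genes above 5 ppm. Mycn thus ranked further out in paused than in control cells in both sets.

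The Mycn change was larger in paused cells by a test of the difference itself. Paused minus control came to -0.40 (SE 0.08, 95% interval -0.56 to -0.24, Benjamini-Hochberg adjusted p 9.63e-04 over 19134 genes). Across all genes that test called 1.44%, and Mycn was the single member called. It remained so at an adjusted p under 0.01 (0.533% of all genes), with equal summed counts (1.54%), with centring (1.51%) and among genes above 5 ppm alone (2.93%). The call was lost when the statistic was divided by its middle spread (adjusted p 0.0552, 0.183% of all genes called) and when tested against a difference of at most 1.2-fold (adjusted p 1, 0.0209% called).

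Myc codes for c-Myc and is a known target of LIF and Wnt signalling in these cells (chr15:61985391-61990374, plus strand). Its mean was 3501 normalized counts in the authors' deposited control table and 3052 in the paused one. The implied level went from 4238 in wild-type to 3133 in knockout control cells, and from 3558 to 2800 in paused cells (2835 to 3834 and 2586 to 3286 with the other reading). Again the knockout was the lower genotype in each condition, and the steps were smaller than those of Mycn. Myc fell by 0.44 in the authors' deposited control table (SE 0.08, adjusted p 2.41e-07), to 73.9% of wild type. In the authors' deposited paused table it fell by 0.35 (SE 0.09, adjusted p 9.31e-04), to 78.7%. The difference between conditions was 0.09 (95% interval -0.15 to 0.33, adjusted p 0.84), which leaves room for a larger or a smaller fall in paused cells. Myc passed neither the test against a 1.2-fold change (adjusted p 0.0924 in control and 0.697 in paused cells) nor the one with that scaled statistic (0.5 and 0.805).

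Mycl codes for L-Myc (chr4:122995652-123002485, plus strand) and was the least abundant Myc transcript. It passed the test in neither condition. The authors' deposited tables give a change of 0.10 (SE 0.09, adjusted p 0.379) in control and 0.03 (SE 0.09, adjusted p 0.843) in paused cells, with mean normalized counts of 836 and 799. The 95% intervals run from 95.1% to 121.1% and from 90.3% to 114.8% of wild type, so a fall of the size seen for Mycn in the same condition lies outside both.

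Added together per kilobase, the implied levels of Myc, Mycn and Mycl went from 147.0 ppm in wild-type to 98.4 in knockout control cells, and from 109.7 to 64.1 in paused cells. Mycn made up 74.0% of this sum in wild-type control cells, 69.9% in knockout control cells, 69.0% in wild-type paused cells and 56.7% in knockout paused cells. The Myc share in the same order was 23.0%, 25.4%, 26.9% and 36.3%. With the wild type read as the numerator, the Mycn shares in that order were 68.4%, 72.8%, 52.4% and 65.3%, and the Myc shares 26.2%, 23.8%, 39.3% and 29.8%. In ppm of each table's sum, wild-type paused cells had 0.696 times the level of wild-type control cells for Mycn and 0.873 times for Myc, or 0.484 and 0.948 times with the wild type read as the numerator. The tables were normalized separately, so these last ratios have no test.

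Max, the shared partner (chr12:76937269-76962201, minus strand), passed the test in paused cells and not in control cells. Its mean normalized counts in the authors' deposited tables were 5059 in control and 5036 in paused cells. The control change of 0.03 in the authors' deposited table (SE 0.04, adjusted p 0.541) did not pass, with an interval from 96.8% to 108.3% of wild type. In paused cells Max rose by 0.16 in the authors' deposited table (SE 0.04, adjusted p 8.08e-04), to 111.7%. The difference of 0.13 (95% interval 0.01 to 0.24) had an unadjusted p of 0.0342 and did not pass over all genes (adjusted p 0.331).

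The 4 antagonists leaned upward. Of Mxd3, Mxd4, Mxi1 and Mnt, 2 were called higher in control cells and 3 in paused cells, and none was called lower. Their median change was 0.21 in control and 0.17 in paused cells, beside 0.00 over all genes. The share of all genes called higher was 19.5% and 20.5%.

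Mnt, the most widely expressed antagonist and a partner of both Max and Mlx, made up most of this group (chr11:74830920-74845725, plus strand). It held 68.9% of the summed level per kilobase of the antagonists in wild-type control cells and 84.3% in wild-type paused cells, or 67.2% and 84.2% with the wild type read as the numerator. Its mean normalized count in the authors' deposited tables was 3207 in control and 6198 in paused cells. In ppm, wild-type paused cells had 1.94-fold the level of wild-type control cells, or 2.08-fold with that other reading, again across tables normalized separately and with no test. Mnt rose by 0.19 in the authors' deposited paused table (SE 0.04, adjusted p 1.02e-06), to 114.1% of wild type. The control value in the authors' deposited table was 0.11 (SE 0.06, adjusted p 0.105), and it passed the threshold with equal summed counts (0.17, adjusted p 0.0115). The difference of 0.08 did not pass (SE 0.07, adjusted p 0.698).

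Mxd4 (Mad4), an Mxd protein linked to cells leaving the cycle, had the largest rise among the members in paused cells and the lowest level (chr5:34173883-34187720, minus strand). The authors' deposited tables give mean normalized counts of 175 in control and 212 in paused cells. It rose by 0.31 (SE 0.09, adjusted p 0.00406) in control and by 0.55 (SE 0.10, adjusted p 6.58e-07) in paused cells (authors' deposited tables), to 123.7% and 146.4% of wild type. The difference of 0.24 (95% interval -0.03 to 0.51) did not pass (adjusted p 0.47). An antisense transcript shares 6.06% of its exon bases, and whether counting used strand is not given in the sources used here.

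Mxi1 (Mad2), which like the Mxd proteins pairs with Max, lies at chr19:53310518-53375810 on the plus strand. Its mean normalized counts were 1298 in control and 905 in paused cells (authors' deposited tables). It rose by 0.31 (SE 0.06, adjusted p 8.08e-06) in control and by 0.16 (SE 0.05, adjusted p 0.00793) in paused cells (authors' deposited tables). Among the antagonists that are members, this was the single one with the smaller value in paused cells. The difference of -0.15 did not pass (95% interval -0.31 to 0.01, adjusted p 0.448). Mxd3 (Mad3), an unusual Mxd protein known to be expressed in S phase, passed in neither condition (chr13:55325168-55329823, minus strand). Its changes in the authors' deposited tables were -0.01 (SE 0.10) in control and 0.16 (SE 0.11) in paused cells, at means of 271 and 221 normalized counts, and the intervals reach from 87.3% to 113.3% and from 96.3% to 129.0% of wild type.

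Set against each other, the summed levels per kilobase of Myc, Mycn and Mycl were 7.09 times those of the 4 antagonists in wild-type control cells and 4.32 times in knockout control cells. In paused cells the ratio was 3.35 in the wild type and 1.71 in the knockout. The ratio was therefore lower in the knockout of each condition and lower in paused than in control cells of each genotype. With the wild type read as the numerator it was 3.67 and 6.02 in wild-type and knockout control cells and 1.40 and 2.67 in paused cells. That reading turns the order of the genotypes, while paused cells stay below control cells. It is a ratio of mRNA levels and has no error, since the libraries behind it are not in the tables. It ranged from 6.52 to 7.65, 3.97 to 4.62, 2.97 to 3.79 and 1.54 to 1.92, in the same order, with other lengths or another number of libraries in the mean.

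The Mlx arm split in paused cells. Mlx (chr11:101087277-101092207, plus strand) fell there by 0.15 in the authors' deposited table (SE 0.05, adjusted p 0.00672), to 90.4% of wild type, from a mean of 1106 normalized counts. Its control value in the authors' deposited table was -0.02 (SE 0.05, adjusted p 0.744, mean 1622). The paused call of Mlx was lost when changes were centred on abundant genes (-0.10, adjusted p 0.0805), and 19.3% of its exon bases overlap Psmc3ip on the opposite strand. Mlxip (MondoA), which moves to the nucleus when sugar phosphates are plentiful, rose in paused cells by 0.32 (SE 0.05, adjusted p 1.14e-08, mean 2984) in the authors' deposited table, to 125.0% of wild type (chr5:123394798-123457932, plus strand). In control cells the authors' deposited table gives Mlxip 0.15 (SE 0.07, adjusted p 0.0798, mean 2671). Neither difference between conditions passed, at -0.12 for Mlx (adjusted p 0.427) and 0.18 for Mlxip (adjusted p 0.362).

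Of 5 other genes of the network, 4 were in the tables, and each lay above 0 in both conditions. The authors' deposited tables called 3 higher in control cells and 3 in paused cells, and none lower, where 19.5% and 20.5% of all genes were called higher. When a change had to exceed 1.2-fold, 1 passed in control and 0 in paused cells (1 with an unadjusted p under 0.05). With each statistic divided by its middle spread, 0 passed in each condition (1 with an unadjusted p under 0.05 in each). Mlxipl (ChREBP) rose by 0.73 (SE 0.09) in control and 0.47 (SE 0.08) in paused cells (authors' deposited tables). Mxd1 (Mad1) rose by 0.44 (SE 0.09, adjusted p 8.33e-06) in control cells and had a value of 0.14 (SE 0.07, adjusted p 0.0769) in paused cells (authors' deposited tables). Bmyc, a short Myc relative of rodents without the DNA-binding part, rose by 0.19 and 0.14 in the authors' deposited control and paused tables. Mga, a large Max partner, rose by 0.25 in the authors' deposited paused table (SE 0.05, adjusted p 1.77e-06) and had 0.17 (SE 0.08, adjusted p 0.0708) in control cells. None of these 4 differences between conditions passed, with adjusted p from 0.185 for Mxd1 to 0.89 for Bmyc.

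Most genes that Myc is known to activate had a change below 0, though not all of these were called. Of 36 listed, all in the tables, 33 lay below 0 in control and 30 in paused cells. With centring on abundant genes these counts were 30 and 24. The authors' deposited tables called 19 lower and 2 higher in control cells, and 16 lower and 2 higher in paused cells, while 21.9% and 22.0% of all genes were called lower. Median changes were -0.15 in control and -0.08 in paused cells, against 0.00 over all genes. All 36 were above 5 ppm, and genes above 5 ppm had a median of -0.05 in each table. Of such genes alone, 32.6% were called lower in control and 32.8% in paused cells, where 19 and 17 of the 36 were. With equal summed counts the calls were 14 lower and 2 higher in control cells and 10 lower and 5 higher in paused cells. Under that scaling 39.8% and 41.1% of all genes were called in either direction. Few single genes passed a harder test. When a change had to exceed 1.2-fold, 1 was called lower and none higher in control cells, and 1 lower and 1 higher in paused cells. With each statistic divided by its middle spread, 0 of the 36 passed in control cells (3 with an unadjusted p under 0.05) and 1, lower, in paused cells. Odc1, the first enzyme of polyamine synthesis and a classic Myc target, fell by 0.46 (SE 0.08) and 0.36 (SE 0.04) in the authors' deposited control and paused tables. Nme1, a nucleoside diphosphate kinase, fell by 0.54 (SE 0.11) and 0.28 (SE 0.06), and Ddx18, an RNA helicase of ribosome assembly, by 0.37 (SE 0.09) and 0.15 (SE 0.04) in the authors' deposited tables. The 2 genes called higher in each of the authors' deposited tables were E2f2, a cell cycle factor, with 0.41 (SE 0.09) and 0.50 (SE 0.09), and Shmt2, a mitochondrial enzyme of one-carbon metabolism named after its values were seen, with 0.16 and 0.11.

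The difference between conditions was called for 2 of these 36, in opposite directions, which are named for that reason after their values were seen. Over all genes 1.44% were called. Eif4e, the cap-binding translation factor, fell by 0.20 in control cells and had -0.01 in paused cells (authors' deposited tables; difference 0.19, SE 0.06, adjusted p 0.0371). Mat2a, which makes S-adenosylmethionine, had -0.05 in control cells and fell by 0.33 in paused cells (authors' deposited tables; difference -0.28, SE 0.06, adjusted p 0.00342). The Eif4e call was lost with equal summed counts (adjusted p 0.0764) and at an adjusted p under 0.01. Both were lost with the statistic divided by its middle spread (adjusted p 0.354 for Eif4e and 0.109 for Mat2a) and against 1.2-fold (adjusted p 1 for each). Of the 36, 26 had a paused change above their control change, with a median difference of 0.08 against 0.01 over all genes. With equal summed counts that number was 24. Most of these differences were not called, and how they relate to the Mycn difference was not tested.

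Of 8 genes that Myc is known to repress, the authors' deposited tables called 1 higher and 2 lower in control and 3 higher and 2 lower in paused cells. Calls were made for 41.4% and 42.6% of all genes, so the control count is near the background. When a change had to exceed 1.2-fold, 1 was called higher and 0 lower in each condition. With each statistic divided by its middle spread, 0 passed in control cells (1 with an unadjusted p under 0.05) and 1, higher, in paused cells. Ndrg1, a stress-induced gene that N-Myc represses in neuroblastoma, rose by 0.68 (SE 0.08) in control and 1.27 (SE 0.12) in paused cells (authors' deposited tables). That rise was larger in paused cells by the test of the difference (0.59, SE 0.14, adjusted p 0.00609), but not with the statistic divided by its middle spread (adjusted p 0.148) or against a difference of at most 1.2-fold (adjusted p 1). Cdkn1a, the cell cycle inhibitor p21, fell by 0.49 and 0.45 instead, and Gadd45a, a damage response gene, by 0.35 and 0.29 in the authors' deposited tables. The other 2 genes called higher in paused cells were Ndrg2, an Ndrg1 relative (0.25 in the authors' deposited table, named after its values were seen), and Gadd45b. Gadd45b rose by 0.32 in the authors' deposited paused table (SE 0.11) and had 0.04 in control cells.

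Of the Mlx and Mondo targets, 5 of 6 were in the tables. The authors' deposited tables called 0 higher and 1 lower in control cells and 1 each way in paused cells. Of all genes, 41.4% and 42.6% were called. When a change had to exceed 1.2-fold, 1 was called lower in each condition and none higher. With each statistic divided by its middle spread, 0 passed in each condition (2 with an unadjusted p under 0.05 in paused cells). Txnip, the most studied target of Mlxip and a brake on glucose uptake, passed in neither condition, with 0.02 (SE 0.07) and 0.10 (SE 0.06) in the authors' deposited tables, and was named after its values were seen. Klf10, a transcription factor of the TGF-beta response too, rose by 0.18 in the authors' deposited paused table (SE 0.03, adjusted p 3.67e-07). Khk, which phosphorylates fructose, was the single gene of this list called lower, by 0.64 and 0.60 in the authors' deposited tables, at under 5 ppm, and was named after its values were seen.

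Of 10 genes of the Sin3 and NCoR corepressors, 2 were called higher and 2 lower in control cells and 3 higher and 1 lower in paused cells (authors' deposited tables). These 4 of 10 in each condition are near the shares of all genes called, 41.4% and 42.6%. When a change had to exceed 1.2-fold, 0 of the 10 passed in each condition (1 with an unadjusted p under 0.05 in each). With each statistic divided by its middle spread, the same counts were found. Ncor1 led with a rise of 0.37 (SE 0.06) and 0.35 (SE 0.04), and Sin3b rose by 0.24 and 0.16 in the authors' deposited tables. Sin3a rose by 0.15 in the authors' deposited paused table. Those called lower were Rbbp7 by 0.20 and Sap18 by 0.13 in control and Hdac1 by 0.10 in paused cells (authors' deposited tables), Sap18 and Hdac1 being named after their values were seen. Mga and Max also belong to a Polycomb complex, PRC1.6, that is known to keep germline genes silent in embryonic stem cells. Of its 10 listed partners 6 were called lower and 1 higher in control cells, and 3 lower and 1 higher in paused cells (authors' deposited tables). The share of all genes called lower was 21.9% in control cells, and the paused count is near the share of all genes called. All 10 were above 5 ppm. Of such genes alone, 32.6% were called lower in control and 32.8% in paused cells, where 6 and 4 of the 10 were. When a change had to exceed 1.2-fold, 1 was called lower in each condition and none higher. With each statistic divided by its middle spread, 1 was called lower in control and 0 in paused cells (3 with an unadjusted p under 0.05). With equal summed counts 4 were lower and 2 higher in control cells. Tfdp1 fell by 0.59 (SE 0.06) and 0.45 (SE 0.06), Cbx3 by 0.40 and 0.24 and E2f6, the factor that brings the complex to E2F sites, by 0.33 and 0.16 in the authors' deposited tables. Yaf2 fell by 0.62 in control cells (SE 0.15) and had -0.21 (SE 0.12) in paused cells (authors' deposited tables). Rybp, named after its values were seen, was the single partner called higher in control cells (0.10, authors' deposited table). L3mbtl2 had a higher value in paused cells (difference 0.24, SE 0.05, adjusted p 0.00149, or 0.0722 with the statistic divided by its middle spread and 1 against 1.2-fold), from -0.04 in control cells to a called 0.19 in paused cells (authors' deposited tables), and was named after its values were seen.

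Germline genes known to be bound by that complex were mostly higher. Binding was not measured here, and how these changes relate to those of the complex was not tested. Of 16 listed, 12 were called higher and 3 lower in control cells, and 12 higher and none lower in paused cells (authors' deposited tables). Of all genes, 19.5% were called higher and 21.9% lower in control cells, against 20.5% and 22% in the paused table. The medians were 0.55 and 0.81, against 0.00 over all genes in each. With each statistic divided by its middle spread, 3 were called higher in control cells and 9 in paused cells, and none lower, where 1.48% and 2.25% of all genes were called. Stra8, the switch gene of meiosis, rose by 2.57 (SE 0.16) and 2.38 (SE 0.21), Dazl by 1.10 and 1.30, Smc1b by 1.18 and 1.08 and Stk31 by 0.87 and 1.21 in the authors' deposited control and paused tables. The 3 called lower in control cells, named after their values were seen, were Tdrd1 by 0.70, Sycp3 by 0.42 and Ddx4 by 0.37 (authors' deposited table).

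**Figure D3:**
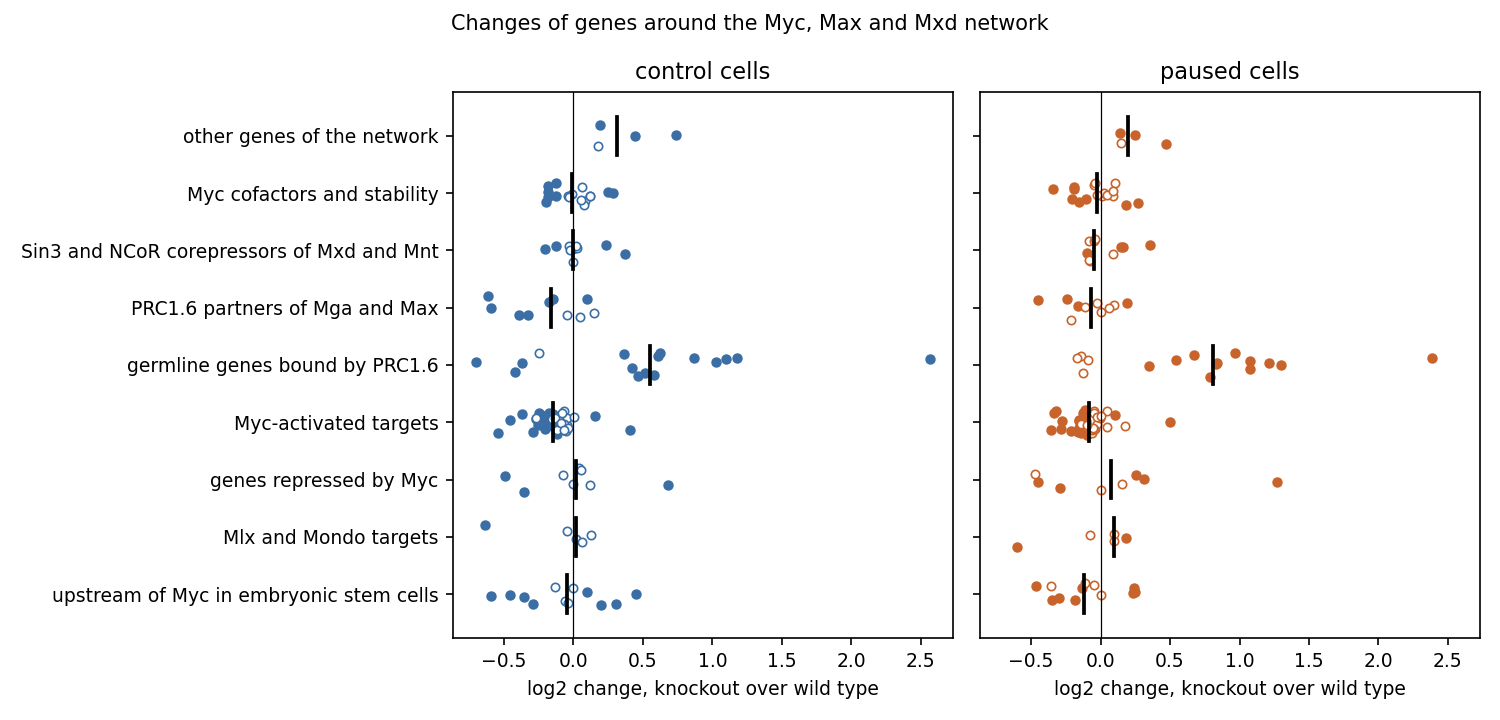
Log2 change of knockout over wild type for every gene of 9 lists around the network, in control (left) and paused (right) cells. Filled points have an adjusted p under 0.05, open points do not, and black bars are list medians, which run from -0.16 to 0.55 in control and from -0.12 to 0.81 in paused cells.

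Genes known to act upstream of Myc in these cells went both ways. Of 12 listed, 8 lay below 0 and 4 above in each condition, with medians of -0.05 in control and -0.12 in paused cells. The calls were 4 higher and 4 lower in control cells, and 3 higher and 5 lower in paused cells (authors' deposited tables), where 41.4% and 42.6% of all genes were called. None was called in either condition when a change had to exceed 1.2-fold or with each statistic divided by its middle spread, and under each of these rules 2 had an unadjusted p under 0.05 in control and 1 in paused cells. Lef1, a Wnt effector, fell by 0.59 (SE 0.14) and 0.47 (SE 0.11) in the authors' deposited control and paused tables. Axin2, a Wnt feedback gene, fell by 0.46 in control cells (SE 0.14) and had -0.35 (SE 0.17, adjusted p 0.0762) in paused cells (authors' deposited tables). Among forkhead factors that oppose Myc in other cells, Foxo3 rose by 0.45 and 0.25 and Foxo1 fell by 0.36 and 0.35 in the authors' deposited tables. Named after their values were seen, Tcf7l1 rose by 0.31 and 0.24, the LIF receptor gene Lifr rose by 0.20 and 0.23, and the kinase gene Mapk3 fell by 0.29 and 0.30 in the authors' deposited tables, and Gsk3b by 0.19 and Il6st by 0.13 in the paused one. Ctnnb1, which codes for the Wnt effector beta-catenin and was named after its values were seen, rose by 0.10 in control cells and had -0.05 in paused cells (authors' deposited tables), the single gene of this list whose change differed between conditions (-0.15, SE 0.04, adjusted p 0.0311). That call was lost at an adjusted p under 0.01 and under both harder tests, with the statistic divided by its middle spread (adjusted p 0.327) and against 1.2-fold (adjusted p 1).

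Of 17 Myc cofactors and stability factors, 6 were called lower and 2 higher in each of the authors' deposited tables, a share of calls near the 41.4% and 42.6% of all genes. With equal summed counts 4 were lower and 4 higher in control cells and 5 lower and 4 higher in paused cells, so the lean to lower calls rests on the scaling. When a change had to exceed 1.2-fold, 0 of the 17 passed in each condition. With each statistic divided by its middle spread, 0 passed in each condition (3 with an unadjusted p under 0.05 in paused cells). Skp2, a ubiquitin ligase that acts on Myc, fell by 0.18 (SE 0.05) in control and 0.34 (SE 0.06) in paused cells (authors' deposited tables). Zbtb17 (Miz1), through which Myc represses genes, rose by 0.27 in the authors' deposited paused table (SE 0.04) and had 0.09 (SE 0.05) in control cells. The scaffold Trrap and the remodeller Ep400, both of the acetyltransferase complex that Myc recruits, rose by 0.28 and 0.25 in control cells of the authors' deposited table, and neither passed in paused cells. Other genes of that complex went the other way, and are named after their values were seen. Kat5 fell by 0.20, Ruvbl1 by 0.18 and Ruvbl2 by 0.12 in control cells (authors' deposited table). In the authors' deposited paused table Ruvbl1 fell by 0.19 and Ruvbl2 by 0.16, and Kat5 had 0.01. Usp28, named after its values were seen, was the other gene called higher in paused cells (0.18 in the authors' deposited table).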

How the data were processed

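Poly(A) RNA was sequenced from 24 libraries, grouped by genotype and condition from their titles. Per the submitters' processing notes, FastQC, Trim Galore, HISAT2, featureCounts and DESeq2 were used with build mm10; their versions, settings and use of strand are not given in the sources used here. The authors deposited 2 results tables. Per the file headers these hold, for each gene, the mean normalized count (a signal value averaged over libraries), the log2 change with its standard error, the statistic (a score, the change over its error), and the p-value with its Benjamini-Hochberg adjusted p-value, which were recomputed from the statistic and matched to within 1 percent. Which libraries entered each table is not stated.

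The authors' tests were taken unchanged, with an adjusted p under 0.05. The difference between conditions was the paused minus the control change, divided by its standard error (from both tables' errors in quadrature), with a normal two-sided p adjusted over 19134 genes. Intervals are 95% normal intervals. Lists were described by counts and medians. Levels use GENCODE M21 exon lengths. Named genes were the 10 members, Smad2 and, per list, up to 4 called genes with at least 5 ppm of the table's summed counts (230 normalized counts for control, 221 for paused cells), by size of change. Others are said to be named after their values were seen. Members, lists and motifs were chosen with earlier results of these data known. No genes of similar pattern are named, since 2 comparisons are too few. No depth per library is known, so precision rests on the deposited standard errors (median 0.11 for control, 0.10 for paused cells). Python 3.11.15, numpy 2.4.6, scipy 1.17.1, pandas 2.3.3 and matplotlib 3.10.9 were used.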

Additional observations from a re-analysis of the deposited data

Results flagged for a closer look

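The knockout change of Mycn differed between the conditions by -0.40 (paused minus control), and that of Ndrg1 by 0.59, each by a test of the difference itself with adjustment over 19134 genes. Mycn was lower in the knockout in both conditions and Ndrg1 higher in both, so for each the paused change was the larger of the same direction. Both calls were lost with the statistic divided by its middle spread (adjusted p 0.0552 for Mycn and 0.148 for Ndrg1) and against a difference of at most 1.2-fold (adjusted p 1 for each).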

How the results depend on the processing

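In a test against changes up to 1.2-fold, 1 member passed in control cells (Mycn), 2 in paused cells (Mycn and Mxd4) and 0 for the difference, where 0 also had an unadjusted p under 0.05. With statistics divided by their middle spread, 1 passed in control and 1 in paused cells (Mycn in each) and 0 for the difference, with 1 unadjusted p under 0.05. Deposited statistics had a middle spread of 2.76 in control and 2.80 in paused cells, where 1 is that of unchanged genes; the cause was not tested. An adjusted p under 0.01 changed no member's call. Equal summed counts, centring on abundant genes and the minimum on abundance gave 6, 6 and 3 calls in control cells, 8, 7 and 7 in paused cells and 1 each for the difference; the minimum leaves out Mxd4 in both tables and Mxd3 in paused cells. Other lengths or library numbers moved no summed level or ratio by over 1.5-fold. With the wild type read as the numerator, an alternative chosen after seeing the data, the summed wild-type level of Myc, Mycn and Mycl was 86.6 in control and 54.7 in paused cells, and its ratio to the antagonists 3.67 and 1.40 in the wild type and 6.02 and 2.67 in the knockout. Leaving out single replicates was not run, since the tables hold no libraries. No paired analysis was possible because the tables hold no libraries and the replicate numbers cannot be used. Without library values, depth and spread per library are unknown.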
